A study of Homo sapiens with 4 samples.

Results

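The 10 genes described here are the CDC2-like kinases CLK1, CLK2, CLK3 and CLK4, the cyclins CCNL1 and CCNL2, and the RNA-processing genes NKTR, RBM5, RBM6 and RBM39. They were chosen by name from an expression table of 60302 genes, each is listed in 1 row, and all 10 were among the 13110 genes whose mean over the samples reached 1 FPKM and that were tested. FPKM scales fragment numbers for transcript length and sequencing depth, so levels of different genes can be set side by side. The choice was made with the values known, because most of these transcripts differ between samples numbered 1 and samples numbered 2, so every difference between replicate numbers below is a description without a test. PolyA-selected RNA was sequenced from HMLE cells, a human mammary epithelial line made immortal in culture, carrying a stably integrated lentiviral short hairpin RNA. In 2 samples the hairpin was directed at hnRNPF (hnRNPF knockdown, replicates 1 and 2) and in the other 2 it was non-specific (control, replicates 1 and 2). Whether the paired samples within each group were infected or grown separately is not stated in the labels, so any p-value measures only the spread between these samples, which may be technical. In bulk RNA, fewer cells expressing a gene and less of its RNA per cell cannot be told apart. hnRNP F is an RNA-binding protein that recognises runs of guanine and regulates splicing, and the title of the series concerns RNA G-quadruplexes, the folded structures that such runs can form.

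CLK kinases phosphorylate the SR proteins, a family of serine- and arginine-rich splicing factors, and so release them to act on pre-mRNA. Transcripts of CLK1 and CLK4, and of many other genes of RNA processing, are known for detained introns: the polyadenylated RNA is held in the nucleus with some introns unspliced and is completed later. Cyclins L1 and L2 partner the kinase CDK11 in transcription and splicing. NKTR encodes a large cyclophilin with a serine- and arginine-rich tail, RBM5 and RBM6 are neighbouring paralogs that act on early spliceosomes, and RBM39 is a U2AF-related splicing factor that sulfonamide drugs direct to degradation.

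The choice of genes did not count their annotated transcripts. Genes known for detained introns were among those chosen, however, so the counts below are a description and are not independent of the choice. The annotation was that of GENCODE 29. This catalogue marks transcripts that keep an intron as retained-intron transcripts. It lists 16 of them for CCNL1, 16 for RBM5, 16 for RBM39, 13 for NKTR, 9 for CCNL2, 8 for CLK1, 8 for CLK3, 7 for CLK4, 4 for RBM6 and 0 for CLK2. At least 8 were listed for 7 of the 10 genes, against 4.17% of the 11453 protein-coding genes tested, whose median was 1. At least 4 were listed for 9 of the 10 genes, against 19.8% of all, and CLK2 shared its count of 0 with 41.0% of all. Such counts go with the number of transcripts listed of any kind. That number ran from 7 for CLK2 to 45 for RBM39. Its median was 5 over all genes with 0 retained-intron transcripts and 22 over those with 8 or more. Its part in the counts of the 10 genes was not tested. The deposited table gives 1 value per gene, so spliced and intron-holding RNA could not be told apart in any sample.

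In the 3 kinase genes CLK1, CLK4 and CLK3 the annotated retained introns included both neighbours of exon 4. Skipping of exon 4 in CLK1 is known to give a truncated protein without the kinase domain. Exon 4 is 91 bases long in CLK1 and CLK4 and 97 in CLK3, so its loss shifts the reading frame in each. In CCNL1 introns 4 and 5, around the 65-base exon 5, were each covered by 2 retained-intron transcripts. The 4 exons are shown as examples of annotated retention on both sides of an exon: each is the first short coding exon of its gene whose neighbouring introns are both covered by the same retained-intron transcript. Other exons of these genes also lie between retained introns and are not shown. Capitals mark the exon and lower case the 50 bases of intron on either side, 5′ to 3′ on the gene's strand, as in the GENCODE 29 transcripts on GRCh38. The windows are chr2:200860075-200860265 on the minus strand for CLK1, chr5:178617294-178617484 on the minus strand for CLK4, chr15:74622070-74622266 on the plus strand for CLK3 and chr3:157152127-157152291 on the minus strand for CCNL1.
CLK1 exon 4: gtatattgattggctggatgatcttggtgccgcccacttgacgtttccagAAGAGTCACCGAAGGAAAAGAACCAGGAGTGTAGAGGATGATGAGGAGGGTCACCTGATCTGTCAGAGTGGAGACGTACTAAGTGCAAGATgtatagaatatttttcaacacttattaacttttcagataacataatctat
CLK4 exon 4: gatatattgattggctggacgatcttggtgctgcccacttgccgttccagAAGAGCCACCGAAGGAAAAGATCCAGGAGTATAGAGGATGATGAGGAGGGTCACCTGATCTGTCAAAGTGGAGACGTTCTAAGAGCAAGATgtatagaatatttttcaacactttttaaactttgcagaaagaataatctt
CLK3 exon 4: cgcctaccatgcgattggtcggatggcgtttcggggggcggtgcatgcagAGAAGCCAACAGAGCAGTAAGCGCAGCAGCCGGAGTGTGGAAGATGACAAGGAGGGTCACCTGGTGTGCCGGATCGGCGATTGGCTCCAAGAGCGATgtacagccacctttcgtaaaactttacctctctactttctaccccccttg
CCNL1 exon 5: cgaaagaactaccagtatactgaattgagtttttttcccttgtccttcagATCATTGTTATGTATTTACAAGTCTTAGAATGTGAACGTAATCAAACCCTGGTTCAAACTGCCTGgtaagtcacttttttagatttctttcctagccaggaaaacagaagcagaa

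CLK1 and CLK4 were nearly the same across this stretch. Their exons 4 were identical at 85 of 91 aligned positions (93.4%), the 50 bases before the exon at 46 of 51 (90.2%) and the 50 bases after it at 44 of 51 (86.3%). CLK3 matched CLK1 at 63 of 99 aligned positions of the exon (63.6%), 27 of 59 before it (45.8%) and 28 of 57 after it (49.1%). Both CLK1 and CLK4 begin intron 4 with the same bases, whereas the CLK3 window has a higher GC content, at 57.4% against 41.4% in CLK1 and 41.9% in CLK4.

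Runs of guanine, the kind of sequence hnRNP F is known to bind, were sparse in those annotated retained introns of these genes that were searched. CCNL2 and RBM6 have retained-intron transcripts but gave no intron that met the rule below, so the search does not cover them. The 25 introns of the principal transcripts of CLK1, CLK3, CLK4, CCNL1, NKTR, RBM5 and RBM39 that a retained-intron transcript covers in full were searched for GGG, counting each run of 3 or more G once and on the strand of the RNA only. They held a median of 0.506 runs per 100 bases and had a median GC content of 34.6%. The 6403 such introns of at least 50 bases in all tested protein-coding genes held 2.198 runs per 100 bases and had 56.5% GC at the median. Run density goes with GC content over these introns, and how much of the gap the low GC content carries was not tested. CLK3 intron 3 stood apart among the 25, with 33 runs in 1894 bases and 58.5% GC. Its density of 1.74 runs per 100 bases still lay under the 2.198 of the 6403 introns, whose median length was 233 bases. It was also the 1 intron of the 25 with a match to the common G-quadruplex pattern, 4 runs of at least 3 G separated by 1 to 7 bases, which 15.4% of the 6403 introns held. Such a match is a description of letters and says nothing of binding or folding in these cells.

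**Figure D1:**
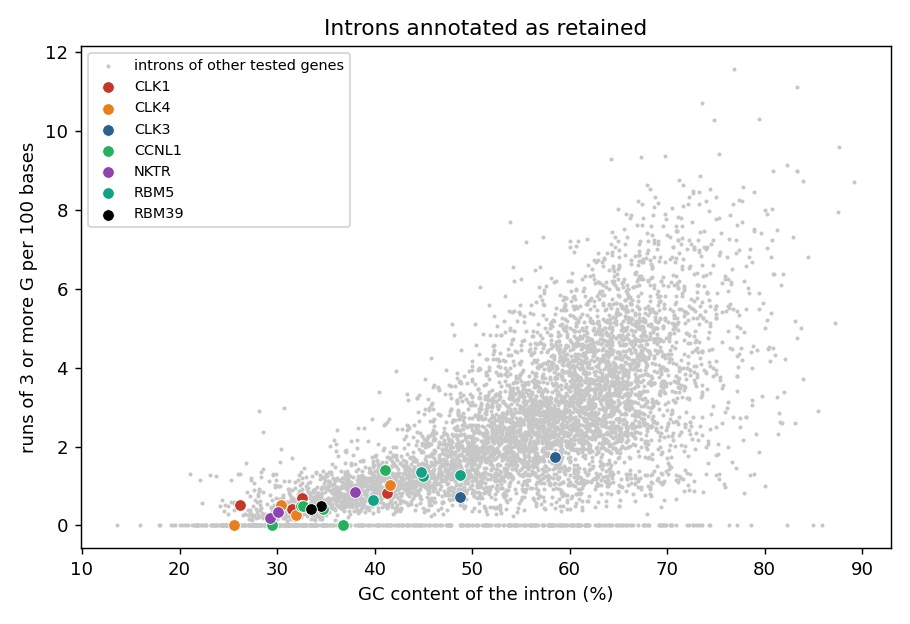
Each point is 1 intron of at least 50 bases that an annotated retained-intron transcript covers in full, by its GC content (x axis, percent) and its runs of 3 or more G per 100 bases (y axis); grey points are introns of other tested protein-coding genes and coloured points the 25 introns of CLK1, CLK4, CLK3, CCNL1, NKTR, RBM5 and RBM39. Most coloured points lie at the low end of both axes, with CLK3 intron 3 at 58.5% GC and 1.74 runs per 100 bases.

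The hairpin target matched the labels, with HNRNPF at 18.7 and 16.6 FPKM in the knockdown samples and 154 and 153 FPKM in the controls (log2 fold change -3.05, SE 0.0986; limma, adjusted p = 0.0251), the 1 gene of the table that passed. It lost that call without control 1 (adjusted p = 0.262), without control 2 (adjusted p = 0.104), with no filter on low values (adjusted p = 0.259) and without the intensity trend of the fit (adjusted p = 0.0995). Fragment totals are not listed, and the commonest lowest step in the values of single-exon genes implies about 80800000 and 84600000 fragments in knockdown samples 1 and 2 and 77200000 and 84600000 in controls 1 and 2, which is an estimate, so no counting interval is given. The label of epithelial cells fits the markers, since 12 mammary epithelial markers summed to between 8940 and 12398 FPKM per sample. The 7 fibroblast markers summed to between 10.2 and 13.5 FPKM, nearly all of it COL1A1. Of the 8 leukocyte and endothelial markers, PECAM1 has no value under that name and is not in their sum. The others summed to between 0.918 and 1.54 FPKM, with the T cell marker CD3E at 0 in every sample.

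RBM39 was the most abundant of the 10 and CLK4 the least. RBM39 averaged 78.4 FPKM over the 4 samples (70.2 to 86.6). It was followed by CLK3 with 24.4 FPKM, RBM5 with 24.3 FPKM and CCNL2 with 23.4 FPKM. CCNL1 averaged 16.3 FPKM, CLK1 16.2 FPKM, RBM6 14.8 FPKM, CLK2 12.7 FPKM and NKTR 11.9 FPKM. CLK4 averaged 3.55 FPKM (3.02 to 4.23). RBM39 lay above all other members in every sample and CLK4 below them in every sample. Between these ends the ranges of each gene and the next in the order overlapped. Within each sample, CCNL2 still exceeded CCNL1, CLK1 exceeded RBM6 and RBM6 exceeded CLK2 in all 4 samples, whereas the order of the other neighbours changed from sample to sample.

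**Figure D2:**
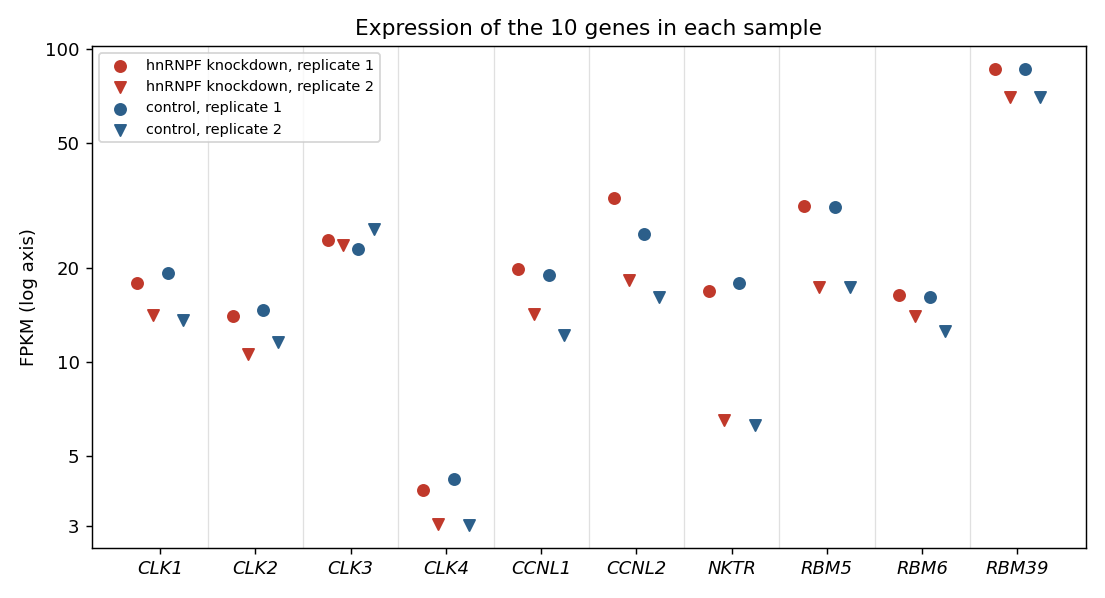
FPKM (y axis, log scale) of each of the 10 genes in each of the 4 samples; red marks hnRNPF knockdown and blue control, circles replicate 1 and triangles replicate 2. For every gene but CLK3 both circles lie above both triangles, while red and blue of the same shape lie close together, as for RBM5 at 31.5 FPKM in knockdown 1 and 31.2 FPKM in control 1.

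Among the kinases, CLK1, CLK2 and CLK4 were higher in both samples numbered 1 than in both samples numbered 2. CLK1 (ENSG00000013441.15, chromosome 2, 201717732 to 201729467, minus strand, GRCh37 as all gene positions here) stood at 17.8 FPKM in knockdown 1 and 14.1 FPKM in knockdown 2, and at 19.2 FPKM in control 1 and 13.7 FPKM in control 2. The ratio of sample 1 to sample 2 was 1.26 in knockdown and 1.41 in control cells. CLK4 (ENSG00000113240.12, chromosome 5, 178029665 to 178057616, minus strand), the closest relative of CLK1 in the sequences above, stood at 3.91 and 3.05 FPKM in knockdown samples 1 and 2, and at 4.23 and 3.02 FPKM in controls 1 and 2. Its ratios were 1.28 and 1.40, near those of CLK1. CLK1 exceeded CLK4 by 4.57 and 4.63 times in the knockdown samples and by 4.54 and 4.53 times in the controls, so this proportion stayed nearly fixed over all 4 samples. CLK2 (ENSG00000176444.18, chromosome 1, 155232659 to 155248282, minus strand), which has no annotated retained-intron transcript, stood at 14.04 and 10.6 FPKM in knockdown samples 1 and 2, and at 14.7 and 11.6 FPKM in controls 1 and 2. Its ratios of 1.32 in knockdown and 1.27 in control cells were of the same size as those of CLK1 and CLK4.

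CLK3 (ENSG00000179335.18, chromosome 15, 74890841 to 74937755, plus strand) was the member that did not follow the replicate number. It stood at 24.5 and 23.6 FPKM in knockdown samples 1 and 2, and at 23.0 and 26.7 FPKM in controls 1 and 2. The samples numbered 1 and those numbered 2 thus overlapped, with control 1 lowest and control 2 highest and with ratios of 1.04 in knockdown and 0.860 in control cells. CLK3 made up 40.6% and 45.9% of the summed FPKM of the 4 kinases in knockdown samples 1 and 2, and 37.6% and 48.6% in controls 1 and 2. CLK1 made up 29.6% and 27.5% in knockdown and 31.4% and 24.8% in control cells, with the highest CLK3 share and the lowest CLK1 share both in control 2. The gene overlaps EDC3 on the opposite strand, which stood at 12.8 and 12.0 FPKM in knockdown and 13.8 and 12.8 FPKM in control samples, and whether the authors' quantification used strand is not given in the sources used here.

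Both cyclin L genes were higher in the samples numbered 1. CCNL1 (ENSG00000163660.11, chromosome 3, 156864297 to 156878549, minus strand) stood at 19.8 and 14.2 FPKM in knockdown samples 1 and 2, and at 18.9 and 12.2 FPKM in controls 1 and 2, with ratios of 1.39 and 1.55. CCNL2 (ENSG00000221978.11, chromosome 1, 1321091 to 1334708, minus strand) stood at 33.4 and 18.3 FPKM in knockdown samples 1 and 2, and at 25.7 and 16.1 FPKM in controls 1 and 2, with ratios of 1.83 and 1.59. Knockdown 1 held the highest value of CCNL2, and this was the sample where CCNL2 exceeded CCNL1 the most, by 1.69 times, against 1.28 times in knockdown 2 and 1.36 and 1.32 times in controls 1 and 2.

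NKTR had the largest difference between replicate numbers of the 10 genes. NKTR (ENSG00000114857.17, chromosome 3, 42642106 to 42690233, plus strand) stood at 16.8 FPKM in knockdown 1 and 6.51 FPKM in knockdown 2, and at 17.9 FPKM in control 1 and 6.30 FPKM in control 2. The ratio was 2.59 in knockdown and 2.84 in control cells. On the log2(FPKM + 1) scale its difference of 1.31, replicate 1 minus replicate 2, lay above that of 99.7% of the genes tested. The opposite-strand neighbour SEC22C, whose locus overlaps that of NKTR, stood at 21.0 and 15.0 FPKM in knockdown samples 1 and 2 and at 19.6 and 21.5 FPKM in controls 1 and 2, and so did not divide the samples the same way.

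RBM5 divided the samples by number with almost no spread within a number. RBM5 (ENSG00000003756.16, chromosome 3, 50126341 to 50156454, plus strand) stood at 31.5 and 17.3 FPKM in knockdown samples 1 and 2, and at 31.2 and 17.4 FPKM in controls 1 and 2, with ratios of 1.82 and 1.80. Its paralog RBM6 (ENSG00000004534.14, chromosome 3, 49977440 to 50137478, plus strand) stood at 16.3 and 13.99 FPKM in knockdown and 16.1 and 12.6 FPKM in control samples, with ratios of 1.17 and 1.28. The listed loci of RBM5 and RBM6 share 11138 bases on the same strand, so fragments there could have been assigned to either gene. RBM5 exceeded RBM6 by 1.93 times in knockdown 1 and 1.24 times in knockdown 2, and by 1.93 times in control 1 and 1.38 times in control 2. Their summed FPKM still divided by number, at 47.9 and 31.3 in knockdown samples 1 and 2 and 47.3 and 30.0 in controls 1 and 2. RBM39 (ENSG00000131051.21, chromosome 20, 34291531 to 34330234, minus strand) stood at 86.6 and 70.2 FPKM in knockdown samples 1 and 2, and at 86.3 and 70.6 FPKM in controls 1 and 2. Its ratios were 1.23 and 1.22, with less than 1 FPKM between samples of the same number.

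Over the group, both samples numbered 1 lay above both numbered 2 for 9 of the 10 genes. This held for 39.7% of all 13110 genes tested, and the opposite for 10.7%. The genes were chosen for this pattern, so nothing is read from the excess. The median log2 difference, replicate 1 minus replicate 2, was 0.37 over the 10 genes and 0.10 over all genes. Median-ratio scaling removed this overall offset, moving the median of all genes to -0.01 and that of the 10 genes to 0.25. The count of 9 was unchanged under it and under quantile normalization, beside 24.8% and 22.6% of all genes. CLK3 had a difference of -0.08 as deposited and of -0.20 after median-ratio scaling.

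**Figure D3:**
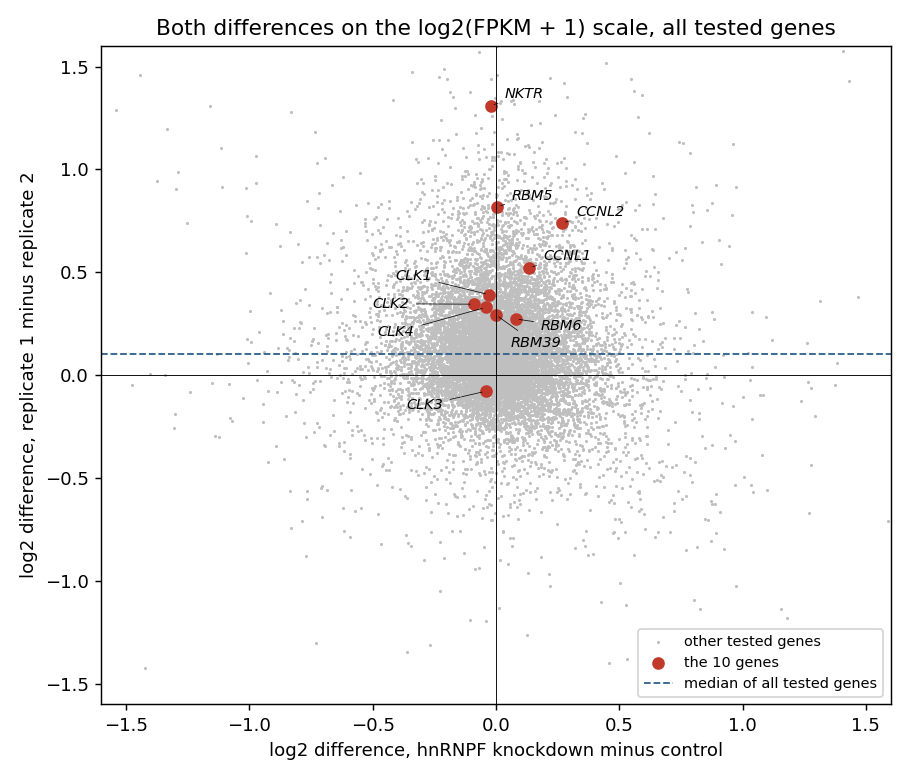
Each point is 1 of the 13110 tested genes, by its log2 difference between hnRNPF knockdown and control (x axis) and between replicate 1 and replicate 2 (y axis), both on the log2(FPKM + 1) scale; red points are the 10 genes, the dashed line is the median of all genes on the y axis (0.10), and 40 genes lie outside the axes. The red points spread along the y axis, from -0.08 for CLK3 to 1.31 for NKTR, and stay between -0.09 and 0.27 on the x axis.

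None of the 10 genes passed the test of hnRNPF knockdown against control. In the limma fit over all 13110 genes 0 of the 10 had an adjusted p under 0.05 and 0 an unadjusted p under 0.05, against 0.00763% and 6.08% of all genes. The lowest adjusted p among the 10 was 0.999. The choice of genes made small p-values unlikely, since the difference between replicate numbers adds to the spread within each group. Nothing is therefore read from these counts beside those of all genes. Both knockdown samples lay above both controls for 0 of the 10 and below them for 0, against 17.5% and 17.1% of all genes. For the 9 genes that divide by replicate number this outcome is fixed, since the same 4 values cannot also divide by hairpin. The median log2 fold change was -0.01 over the 10 genes and 0.00120 over all genes.

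CCNL2 had the largest fold change of the 10, and its groups overlapped. It averaged 25.8 ± 10.7 FPKM in knockdown and 20.9 ± 6.76 FPKM in control cells (SD, n = 2 each), a log2 fold change of 0.27 (SE 0.36, 95% interval -0.70 to 1.23). CCNL1 averaged 17.0 ± 3.95 FPKM in knockdown and 15.6 ± 4.75 FPKM in control cells, with an interval of -0.57 to 0.84. Among the kinases CLK1 averaged 15.98 ± 2.64 FPKM in knockdown and 16.4 ± 3.92 FPKM in control cells, a log2 fold change of -0.03 (SE 0.21). CLK2 averaged 12.3 ± 2.42 FPKM in knockdown and 13.2 ± 2.19 FPKM in control cells, a log2 fold change of -0.09. For CLK4 the averages were 3.48 ± 0.609 FPKM in knockdown and 3.62 ± 0.856 FPKM in control cells. The tightest interval among the 10 was that of CLK3, the gene without a division by number. CLK3 averaged 24.03 ± 0.634 FPKM in knockdown and 24.8 ± 2.64 FPKM in control cells, and its interval of -0.35 to 0.27 covers folds from 0.783 to 1.20.

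The averages of RBM39 were almost equal, at 78.4 ± 11.6 FPKM in knockdown and 78.4 ± 11.2 FPKM in control cells. Its interval covers folds from 0.744 to 1.34. RBM5 averaged 24.4 ± 10.03 FPKM in knockdown and 24.3 ± 9.78 FPKM in control cells, with folds from 0.485 to 2.08 in its interval. RBM6 averaged 15.2 ± 1.67 FPKM in knockdown and 14.4 ± 2.52 FPKM in control cells. NKTR averaged 11.7 ± 7.30 FPKM in knockdown and 12.1 ± 8.19 FPKM in control cells, and its interval was the widest, from 0.311 to 3.12. The fold intervals are on the FPKM + 1 scale. The median SE was 0.211 for the 10 genes and 0.158 for all genes. In this fit the spread within a group holds the difference between replicate numbers by which the genes were chosen.

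**Figure D4:**
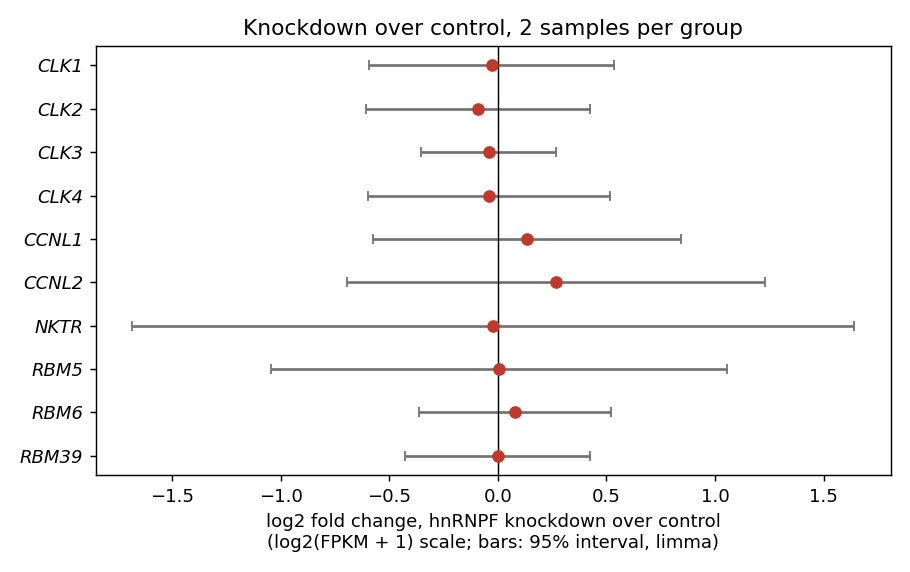
Log2 fold change of each of the 10 genes, hnRNPF knockdown over control, on the log2(FPKM + 1) scale (x axis), with 95% intervals from limma (bars; 2 samples per group). Every interval includes 0, the narrowest being that of CLK3 (-0.35 to 0.27) and the widest that of NKTR (-1.68 to 1.64).

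The partners and substrates of these genes did not pass the knockdown test either. No gene of the 5 lists described next had an adjusted p under 0.05 in limma, against 0.00763% of all genes. In each list 1 gene had an unadjusted p under 0.05, against 6.08% of all genes. Only HNRNPF passed among all 13110 genes, so nothing is read from the absence of calls in these lists. Both knockdown samples lay above both controls for 17.5% of all genes and below them for 17.1%, and the counts of each list are to be read against these shares. Of 12 other kinases of SR proteins and their relatives 10 were tested; 1 lay above both controls in both knockdown samples and 2 below, with a median log2 fold change of 0.0096. HIPK1, a nuclear kinase related to the DYRK family, stood at 8.59 and 8.54 FPKM in knockdown and 5.05 and 3.98 FPKM in control samples (limma, adjusted p = 0.561). HIPK3 stood at 5.66 and 6.77 FPKM in knockdown and 10.1 and 7.22 FPKM in control samples, and DYRK3 at 7.78 and 7.64 FPKM in knockdown and 8.47 and 8.57 FPKM in control samples. The SR protein kinase SRPK1 stood at 47.4 and 39.4 FPKM in knockdown and 46.3 and 47.2 FPKM in control samples, with overlapping groups.

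Of the 20 SR proteins and relatives that CLKs act on, 19 were tested, with 2 above, 1 below and a median of 0.02. SRSF4 stood at 19.1 and 16.8 FPKM in knockdown and 25.9 and 21.9 FPKM in control samples (limma, adjusted p = 0.806). SRSF9 stood at 107 and 114 FPKM in knockdown and 101 and 106 FPKM in control samples, and RSRC1 at 15.5 and 15.7 FPKM in knockdown and 15.1 and 15.3 FPKM in control samples. These last differences were small beside the level of each gene. Of the 14 partners of cyclin L and other cyclins and kinases of transcription, 2 lay above and 5 below, with a median of -0.07. CCNH, the cyclin of the CDK7 kinase, stood at 19.5 and 22.2 FPKM in knockdown and 41.6 and 32.9 FPKM in control samples (limma, adjusted p = 0.540). CCNT1, a cyclin of CDK9, stood at 8.31 and 7.82 FPKM in knockdown and 9.87 and 9.29 FPKM in control samples, and CDK8 at 13.9 and 15.6 FPKM in knockdown and 17.1 and 17.1 FPKM in control samples. The cyclin L partner CDK11B stood at 19.8 and 19.2 FPKM in knockdown and 20.6 and 20.4 FPKM in control samples, and CDK11A at 14.2 and 12.0 FPKM in knockdown and 14.2 and 12.7 FPKM in control samples; these copies are so alike that reads may have been split between them.

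Among 15 paralogs and partners of the RBM genes, 1 lay above and 1 below, with a median of -0.04. The one below was RBM3, a cold-induced RNA-binding protein, at 49.9 and 57.5 FPKM in knockdown and 102 and 136 FPKM in control samples, a log2 fold change of -1.12 (SE 0.17; limma, adjusted p = 0.482). PUF60, a U2AF-related splicing factor, was the one above, at 85.5 and 83.6 FPKM in knockdown and 74.99 and 79.2 FPKM in control samples. RBM10, the other paralog of RBM5, stood at 19.2 and 20.4 FPKM in knockdown and 20.3 and 20.3 FPKM in control samples. In a list of 20 other genes known for retained-intron transcripts, which shares SRSF5, SRSF7, SRSF11 and TRA2A with the SR list, 2 lay above and 1 below, with a median of -0.03. SNRNP70 stood at 87.4 and 88.1 FPKM in knockdown and 90.4 and 106 FPKM in control samples, and SON at 64.8 and 62.0 FPKM in knockdown and 61.3 and 55.5 FPKM in control samples.

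By replicate number the same lists differed among themselves. Both samples numbered 1 lay above both numbered 2 for 17 of the 20 other retained-intron genes and below for 0, with a median log2 difference of 0.62, against 39.7% above and 10.7% below among all genes. MAT2A, the methionine adenosyltransferase gene known for a regulated retained intron, stood at 90.3 and 55.9 FPKM in knockdown samples 1 and 2 and at 96.3 and 59.4 FPKM in controls 1 and 2. OGT, which encodes the O-GlcNAc transferase and has a known detained intron, stood at 28.1 and 15.4 FPKM in knockdown samples 1 and 2 and at 28.3 and 16.2 FPKM in controls 1 and 2. Both were named after their values were seen. Of the SR proteins 13 of 19 were above and 1 below, with a median of 0.34. The other lists lay nearer to the shares of all genes or below them. For the kinases these numbers were 5 of 10 and 0, with a median of 0.15, and for the cyclin L partners 3 of 14 and 0, with a median of 0.05. For the RBM partners they were 6 of 15 and 3, with a median of 0.01, which lies under the 0.10 of all genes. These lists were chosen with earlier results of these data known and set beside genes already known to divide by number. Their counts are thus not independent of the pattern and carry no test.

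Among the other protein-coding genes tested, the median difference by number rose with annotated intron retention, with wide overlap between classes. The median log2 difference, replicate 1 minus replicate 2, was 0.06 in the 4690 protein-coding genes outside the group with 0 retained-intron transcripts and 0.11 in 4498 with 1 to 3. It was 0.14 in 1784 genes with 4 to 7 and 0.17 in 471 with 8 or more. The lower and upper quartiles were -0.07 and 0.20 in the class with 0, and 0.03 and 0.35 in that with 8 or more. The share with both samples numbered 1 on top was 32.9%, 40.2%, 43.5% and 52.0% in this order. These classes also differed in median level, from 8.49 FPKM in the first to 19.0 FPKM in the last, and in transcripts listed per gene, from 5 to 22. The knockdown fold change did not follow them, with medians between -0.01 and 0.01.

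Some other properties of the samples moved with the replicate number and others did not. More genes reached 1 FPKM in the samples numbered 1, with 13390 in knockdown 1 and 13228 in control 1, against 12854 in knockdown 2 and 12664 in control 2. Of 8 lncRNAs tested, not all of them nuclear, 4 were higher in both samples numbered 1 and 0 lower, a share near the 39.7% of all genes. Their median log2 difference, replicate 1 minus replicate 2, was 0.43, against 0.10 over all genes. The summed FPKM of the lncRNA list divided by number, at 277 and 217 in knockdown samples 1 and 2 and 323 and 207 in controls 1 and 2. GAS5 was the largest part of this sum, at 131 and 104 FPKM in knockdown and 154 and 104 FPKM in control samples. The nuclear RNA MALAT1 stood at 25.1 and 11.2 FPKM in knockdown samples 1 and 2 and at 19.3 and 13.2 FPKM in controls 1 and 2. It was 1 of the 4 that divided by number and was named after its values were seen. For NEAT1, MEG3, TUG1 and OIP5-AS1 the samples numbered 1 and 2 overlapped. NEAT1 stood at 9.43 and 9.02 FPKM in knockdown and 16.6 and 9.91 FPKM in control samples. Of the 13 mitochondrially encoded genes 6 were higher in the samples numbered 1 and 1 lower, again near the share of all genes. Their summed FPKM did not divide by number, at 31102 and 32440 in knockdown samples 1 and 2 and 31978 and 24742 in controls 1 and 2. Among the 12 mammary epithelial markers 1 was higher and 4 lower in the samples numbered 1, against 39.7% higher and 10.7% lower among all genes. Their median log2 difference was -0.20. With genes in 4 nearly equal bins by GC content of the principal transcript, the median log2 difference was 0.15 in the lowest bin, up to 42.4% GC, and 0.07 in the highest. CLK1, CLK4, NKTR and RBM39 belong to the lowest bin, and CCNL2, CLK2, CLK3 and RBM5 to that between 49.1% and 57.3%. The bin of the longest transcripts, 4693 bases and more, had a median of 0.15 and holds NKTR, at 7343 bases. The part of any of these in the pattern of the 10 genes was not tested.

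The genes whose profile over the 4 samples came closest to the mean profile of the 10 were TRMT11, LRRK1, ZDHHC17, MTRF1 and STRADA. Likeness was the Euclidean distance between log2(FPKM + 1) values centred over the 4 samples, among 9069 other genes averaging 5 FPKM or more, whose median distance was 0.482. TRMT11 lay at 0.029, with 31.6 and 22.4 FPKM in knockdown samples 1 and 2 and 31.0 and 21.3 FPKM in controls 1 and 2. The other 4 lay between 0.0327 and 0.0389.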

How the data were processed

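Stranded paired-end libraries were made from polyA-selected RNA of 4 HMLE samples, per the labels' protocols. The authors deposited FPKM, scaled for length and depth, with 1 column per sample per the file headers. Cuffdiff 2.2.1, STAR 2.5.3a and the build GRCh37 are listed, without roles, per the submitters' processing notes, and the annotation release is not given in the sources used here.

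Samples were grouped by title and treatment label. Values were transformed as log2(FPKM + 1), genes with a mean under 1 FPKM were left out, and knockdown was set against control by limma (version 3.58.1, under R 4.3.3; empirical Bayes with intensity trend, Benjamini-Hochberg adjustment over all 13110 genes, two-sided). The fit was tested on simulated data. Replicate numbers were compared without a test. An exact permutation test of 2 against 2 cannot reach 0.05 and was not run. The members and gene lists were chosen with earlier results of these data known. The named genes are the members, HNRNPF, from each pathway list the 3 with the largest fold change among genes whose groups do not overlap, and the 5 nearest in profile; other genes named were chosen after their values were seen, and 1 gene the rule names is not reported here. Marker, mitochondrial and lncRNA lists are given mainly as sums and counts. GENCODE 29 matched 12955 of the tested identifiers by gene ID without version and supplied transcript types and sequences on GRCh38; no gene position was taken from it. Alternatives were other pseudocounts, filters, scalings and fits, overlapping loci summed, the replicate number as a block, and each sample left out. Python 3.11.15, pandas 2.3.3, biopython 1.88 and matplotlib 3.10.9 were used.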

Additional observations from a re-analysis of the deposited data

How the results depend on the processing

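With 2 samples per group and FPKM only, neither counting error nor intron retention can be assessed, and a test of these genes rests on 2 residual degrees of freedom. None of the 10 genes passed in limma under any alternative run, nor had an unadjusted p under 0.05; over all of them the lowest adjusted p was 0.369, for CCNL2 with the replicate block. The numbers pair the samples only by name; deviations of same-numbered samples correlated across genes (r = 0.39 over 13110 genes), and with the replicate block 0 genes in all passed (1790 had an unadjusted p under 0.05), and HNRNPF had an adjusted p of 0.164 in limma. The block narrowed the 95% intervals of genes that divide by number, to -0.28 to 0.23 for NKTR, -0.22 to 0.23 for RBM5 and -0.0061 to 0.54 for CCNL2 (SE 0.0926). It takes out the difference by which these genes were chosen, so the narrowing follows from the choice. The fit with the block also leaves fewer residual degrees of freedom. The count of genes called was 1 as reported, 0 with no filter (1703 under an unadjusted 0.05), 0 without the intensity trend (789 under it) and between 0 and 2 when a sample was left out. Of 99 fold changes of the 10 genes under the 10 other settings, 97 kept their direction. Another filter, another variance fit or the replicate block cannot alter a fold change here, so much of this agreement was fixed in advance. RBM39 turned to 0.0226 with quantile normalization and CLK1 to 0.0021 when summed with overlapping rows. Leaving out a sample turned the direction in 19 of 40 cases. The log2 fold changes then ran from -0.26 to 0.20 for CLK1, -0.28 to 0.10 for CLK2, -0.15 to 0.0623 for CLK3, -0.23 to 0.15 for CLK4, -0.16 to 0.43 for CCNL1, -0.15 to 0.69 for CCNL2, -0.71 to 0.66 for NKTR, -0.41 to 0.42 for RBM5, -0.0884 to 0.25 for RBM6 and -0.15 to 0.15 for RBM39. Each such fit sets 1 sample against 2 of both numbers, and the lone sample is assumed to vary like the other group. The median log2 difference of the 10 genes between replicate numbers was 0.37 as reported, 0.29 with quantile normalization and 0.25 with median-ratio scaling. It was 0.50 with overlapping rows summed and 0.42 in the controls alone. With rows summed, RBM5 and RBM6 hold the same value, which enters that median once for each gene.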
